A study of Mus musculus with 11 samples.

Results

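The secretoglobin genes of the lacrimal gland were examined in whole glands of male NOD mice, a strain that develops spontaneous lacrimal gland autoimmunity. All genes of the main count table whose symbol begins with Scgb were taken, which gave 27 of 19058 genes. The samples were lacrimal glands of 3 WT, 5 *Tlr7* KO and 3 *Ifnar1* KO mice, with each library taken as 1 mouse. WT and *Tlr7* KO mice were 20 to 22 weeks old. For the *Ifnar1* KO mice, the sources used here gave only a broad age range for all mice of the study. *Tlr7* KO mice carried a single edited allele, a 2 bp deletion made by CRISPR/Cas9 in NOD embryos and bred to homozygosity after 1 backcross generation. *Ifnar1* KO mice were NOD.*Ifnar1* em16/em16 mice, and all groups shared the NOD background. By the methods of the study, a further *Ifnar1* KO library was removed because it resembled WT in expression and in gland inflammation, so this group was selected in part on its outcome, and that library was not analysed here. The comparisons ask how the glands differ when the endosomal RNA sensor TLR7 or the type I interferon receptor subunit IFNAR1 is missing.

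Secretoglobins are small secreted proteins that pair into disulfide-linked dimers. In the mouse, the Scgb1b genes encode the alpha subunits and the Scgb2b genes the beta-gamma subunits of the androgen-binding proteins, which are secreted into saliva and tears. These genes form a large cluster of recent duplicates, so that many of them differ by only a few bases. *Scgb2a2* is the mouse gene named as a counterpart of mammaglobin, and *Scgb3a1* is known as a secreted protein of airway epithelium.

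The 27 genes comprised 12 Scgb1b genes, 13 Scgb2b genes, *Scgb2a2* and *Scgb3a1*, of which 22 were annotated as protein coding and 5 as pseudogenes (GENCODE release M21, GRCm38). The 25 Scgb1b and Scgb2b genes lay within 2.81 Mb of chromosome 7 (chr7:31290508-34100837). Of these, 11 of the 12 Scgb1b genes were on the forward strand and 12 of the 13 Scgb2b genes on the reverse strand. *Scgb2a2* lay on chromosome 19 (chr19:9847562-9852808, forward strand) and *Scgb3a1* on chromosome 11 (chr11:49663610-49665118, forward strand). *Scgb2b2* (chr7:31290508-31304977, forward strand) overlapped *Scgb1b2* (chr7:31290519-31291821, reverse strand), and strand use in counting was not given, so reads of this pair may have been shared. In annotated transcripts, on either strand, no other gene held more than 7.2% of the 31-base stretches of *Scgb2b2* or 6.9% of those of *Scgb1b2*. A further 9 protein-coding Scgb genes of the same cluster in that annotation were not members and were not analysed here.

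Coding sequences showed which genes were close copies (the heat map of identity between coding sequences). *Scgb2b15* and *Scgb2b17* had identical annotated coding sequences of 246 bases. *Scgb2b12* and *Scgb2b19* differed at 5 of 336 bases (98.5% identity), and *Scgb2b7* and *Scgb2b20* at 6 of 336 (98.2%). *Scgb1b7* and *Scgb1b29* were identical over 279 bases, and *Scgb1b20* differed from each of them at 3. The first of these Scgb2b pairs was annotated with a shorter reading frame than the others, which lowers its identity to them. *Scgb1b19* differed from *Scgb1b7* at 10 bases (96.4%), and its closest relative was *Scgb1b12* (98.2%), which is not a member. By contrast, *Scgb2b24* was at most 73.5% identical to any other member and *Scgb2a2* at most 54.9%.

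**Figure D1:**
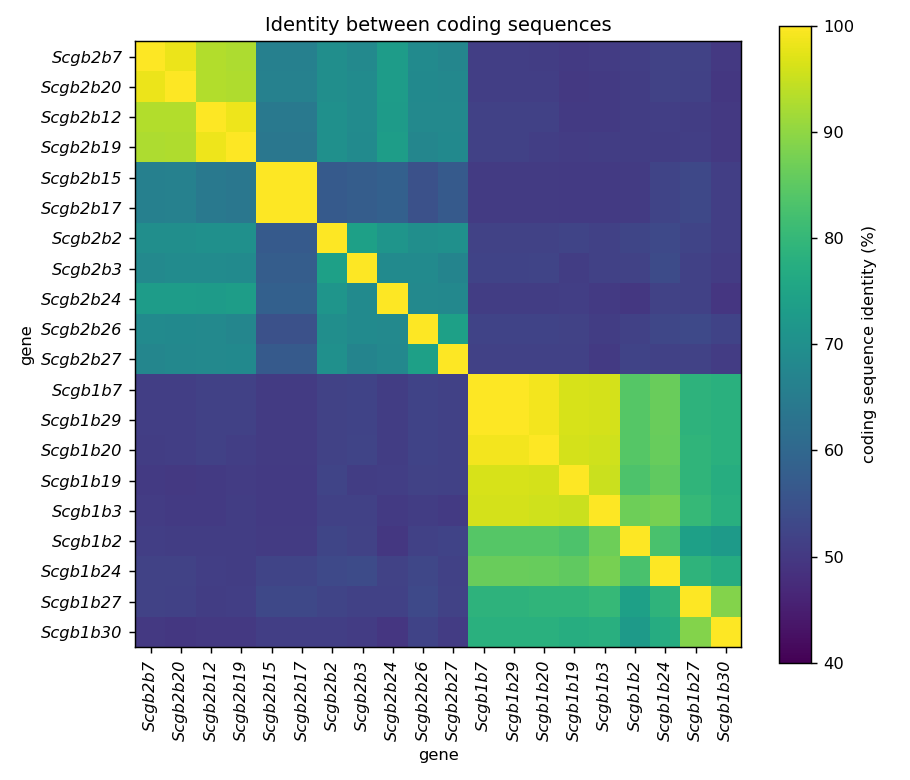
Identity in percent between the coding sequences of the protein-coding Scgb2b and Scgb1b genes, as base differences over the longer sequence, on a color scale from 40 to 100. Pairs in bright yellow are close copies: *Scgb2b15* and *Scgb2b17* (100%), *Scgb2b12* and *Scgb2b19* (98.5%), *Scgb2b7* and *Scgb2b20* (98.2%), *Scgb1b7* and *Scgb1b29* (100%), and *Scgb1b20* with each of these 2 (98.9%).

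How far reads can separate these copies was measured as the share of a gene's 31-base stretches found in no other gene of the count table. That share was 0% for *Scgb2b15* and *Scgb1b29*, 5.6% for *Scgb2b17*, 8% for *Scgb1b7*, 22.5% for *Scgb2b12* and 23.5% for *Scgb2b19*. It was 29.2% for *Scgb1b20*, 32.5% for *Scgb2b20*, 60.8% for *Scgb1b19* and 61.2% for *Scgb2b7*. In all, 8 members were under 50% and 15 were over 80%, among them *Scgb2a2* and *Scgb3a1* at 100%. Against all genes of the annotation, the share was lower for some, at 37.6% for *Scgb1b19*, 38.8% for *Scgb1b3* and 23.5% for *Scgb2b20*. By that measure *Scgb1b19* and *Scgb1b3* also fell under 50%, and *Scgb1b12* held 50.3% of the stretches of *Scgb1b19*. Counts of *Scgb1b19*, *Scgb1b3* and the 8 genes under 50% by the first measure are therefore uncertain one by one. The 8 are also given below as sums over groups of copies with at least 98% identical coding sequence. A share over 80% did not secure a count. *Scgb2b26* (88.2%) had 166833 counts over all mice in the main table and 3 in the second deposited count table, described below. *Scgb1b30* (94.6%) had 10039 and 0.

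The promoters of the Scgb2b copies are shown to let the close copies, called and not called, be compared base by base, and nothing is read from them about the changes in level. Each line is the 100 bases before the annotated start, 5′ to 3′ on the reverse strand (RefSeq, GRCm38.p6), with matches to TATAAA or its reverse complement TTTATA in capitals. *Scgb2b15* and *Scgb2b17* have the same 100 bases, so 1 line stands for both.
Scgb2b12: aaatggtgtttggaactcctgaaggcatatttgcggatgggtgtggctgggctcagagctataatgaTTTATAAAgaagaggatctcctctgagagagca
Scgb2b19: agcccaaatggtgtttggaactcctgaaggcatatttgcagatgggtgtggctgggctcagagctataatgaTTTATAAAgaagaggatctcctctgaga
Scgb2b15: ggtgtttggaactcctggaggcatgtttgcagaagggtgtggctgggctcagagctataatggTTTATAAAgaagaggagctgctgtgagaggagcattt
Scgb2b7: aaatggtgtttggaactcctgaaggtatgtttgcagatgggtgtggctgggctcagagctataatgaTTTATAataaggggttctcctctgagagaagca
Scgb2b20: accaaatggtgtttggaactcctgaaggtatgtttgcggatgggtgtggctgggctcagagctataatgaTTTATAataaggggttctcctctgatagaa
These windows lie at chr7:32327246-32327345 (*Scgb2b12*), chr7:33280342-33280441 (*Scgb2b19*), chr7:32829654-32829753 (*Scgb2b15*), chr7:33056553-33056652 (*Scgb2b17*), chr7:31705755-31705854 (*Scgb2b7*) and chr7:33366320-33366419 (*Scgb2b20*). The capitals began between 28 and 37 bases before the start.

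A promoter of 300 bases, from 250 before to 50 after the start, was found for 17 of the 27 members. The genes without an entry were *Scgb1b3*, *Scgb1b7*, *Scgb1b19*, *Scgb1b20*, *Scgb1b21*, *Scgb1b29* and the 4 pseudogenes named with -ps. On either strand, TATAAA was present in 14 of the 17 (82.4%) and in 13.6% of 32851 promoters of the same length. TTTATAAA, which contains TATAAA and reads the same on both strands, was searched after the sequences had been seen. It was present in 4 of the 17 (23.5%) and in 0.898% of all promoters, and the 4 were *Scgb2b12*, *Scgb2b15*, *Scgb2b17* and *Scgb2b19*. These 4 are not separate observations, since over the 300 bases *Scgb2b15* and *Scgb2b17* were identical and *Scgb2b12* and *Scgb2b19* were 93.7% identical. *Scgb2b12* was closer to *Scgb2b7* (92.7%), which lacks TTTATAAA, than to *Scgb2b15* (89%). *Scgb2b24*, which was called in *Tlr7* KO, also lacks it. AGAACA, one arm of the steroid hormone response element, was present in 8 of the 17 (47.1%) and in 19% of all promoters. All 8 were Scgb2b genes, *Scgb2b7*, *Scgb2b12*, *Scgb2b15*, *Scgb2b17* and *Scgb2b20* among them. The complete element, AGAACA followed by TGTTCT with 3 bases between them, was in none of the 17 and in 3 of the 32851.

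Libraries held between 20512315 and 28814250 estimated counts assigned to genes. Levels of single genes below are in CPM, that is, counts relative to the library total after scaling by edgeR's TMM factors, the smallest being 0.692 (*Tlr7* KO 5) and the greatest 1.48 (WT 3), so they are not shares of a library. *Tlr7* was at 1.53 to 2.92 CPM in WT, 0.496 to 0.949 in *Tlr7* KO and 0.251 to 0.822 in *Ifnar1* KO. *Ifnar1* was at 10.6 to 15 CPM in WT, 8.37 to 9.61 in *Ifnar1* KO and 8.28 to 11.1 in *Tlr7* KO, so transcripts of both targeted genes were still detected. Marker genes of other cell types differed between groups or between single mice. The 8 T cell markers summed to 26.5 to 88.5 CPM in WT, 5.85 to 31.7 in *Tlr7* KO and 1.46 to 15.3 in *Ifnar1* KO, and 7 of the 8 were lower in each KO. The 9 epithelial markers summed to 1022 to 1259 CPM in WT, 1420 to 1502 in *Tlr7* KO and 1445 to 1648 in *Ifnar1* KO, a sum held mostly by *Bhlha15* and *Krt8*. Of the 9, 3 were higher, 1 was lower and 5 were not called in *Tlr7* KO, and 1, 1 and 7 in *Ifnar1* KO. *Slc12a2* was the lower one in both (log2 fold change -0.71, adjusted p = 0.0109, and -0.82, adjusted p = 0.0374), and *Epcam* and *Cdh1* were not called. All 4 tested myoepithelial markers were lower in *Tlr7* KO and 1 of the 4 in *Ifnar1* KO. The 4 skeletal muscle markers summed to 318.7 CPM in WT 1, 235.7 in WT 2 and 227 in *Tlr7* KO 4, and to at most 8.67 in the other mice. Among WT mice, WT 2 had the lowest T cell sum. The 7 salivary gland markers measured summed to 2655 CPM in WT 3, 2373 in *Ifnar1* KO 2 and 250.8 in *Ifnar1* KO 1, and to 38.7 to 72.7 in the other mice, mostly through *Bpifa2* and *Smr3a*. The part of these differences in the secretoglobin results was not tested, and in whole glands fewer cells of a type and less RNA per cell cannot be told apart.

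Secretoglobin transcripts took about as many of the counts as all other genes together. Their share was 50.2%, 61.9% and 48.9% in the WT mice (mean 53.7% ± 7.17, SD, n = 3), 57.3% to 63.8% in *Tlr7* KO mice (58.9% ± 2.79, n = 5) and 54.7% to 59.6% in *Ifnar1* KO mice (56.8% ± 2.55, n = 3). The groups overlapped, with WT 2 above 4 of the 5 *Tlr7* KO mice, and the means differed by less than the SD of the WT mice. Scgb1b genes took 22.5% ± 2.74 of the counts in WT, 23.8% ± 1.8 in *Tlr7* KO and 23.4% ± 0.696 in *Ifnar1* KO. Scgb2b genes took 31% ± 4.3, 34.2% ± 1.34 and 32.4% ± 1.98. The 7 most abundant members held between 83.8% and 93.8% of all secretoglobin counts of a mouse.

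**Figure D2:**
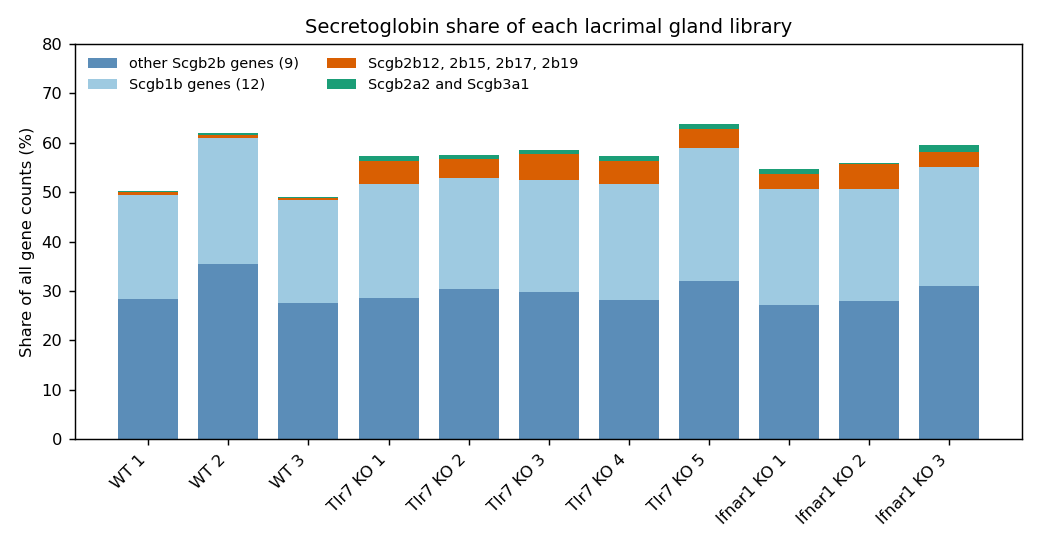
Share of all gene counts in percent (y axis) taken by secretoglobin genes in each of the 11 libraries (x axis), stacked by gene group. The 4 Scgb2b copies in orange form a thin band in the WT mice and a wide band in every KO mouse, and the total runs from 48.9% to 63.8%.

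Compared per length, as counts per kilobase of the longest annotated transcript scaled to the same total in each mouse (length-scaled CPM), 8 of the 10 most abundant genes of WT glands were secretoglobins. *Scgb2b20* was highest at 148700 ± 18300 length-scaled CPM (SD, n = 3), followed by *Scgb1b7* at 145100 ± 18400 and *Scgb2b7* at 120000 ± 11800, each within the summed SDs of the one before. *Scgb1b2* was lower at 86310 ± 15800. *Scgb1b3* (72490 ± 7850), *Scgb2b2* (69980 ± 9370) and *Scgb1b20* (56830 ± 8320) came next, and each differed from the one before by less than the sum of their SDs. *Scgb2b24* was at 25790 ± 1660. Lowest of the protein-coding members were *Scgb1b27* at 0.544 ± 0.371 and *Scgb3a1* at 0.612 ± 0.122 length-scaled CPM. The order among close copies rests on how their shared reads were divided.

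The most abundant subunits were not among the genes that passed the test in either KO. *Scgb2b7* was at 73620, 157477 and 66739 CPM in WT 1, 2 and 3. It was at 109686, 122832, 122068, 101862 and 185297 CPM in *Tlr7* KO 1 to 5, and at 85088, 101661 and 119801 CPM in *Ifnar1* KO 1 to 3. WT 2 lay above all but 1 of the KO mice, so the groups overlapped. *Scgb2b20* was at 73413, 161915 and 65426 CPM in WT, 98322, 106333, 109146, 90413 and 162308 in *Tlr7* KO, and 78562, 89233 and 114218 in *Ifnar1* KO. *Scgb1b7*, an alpha subunit gene, was at 55868, 127542 and 52068 CPM in WT, 87860, 86680, 91601, 84794 and 148824 in *Tlr7* KO, and 77873, 81854 and 90111 in *Ifnar1* KO. In these genes WT 2 and *Tlr7* KO 5 stood above the other mice of their groups. The log2 fold changes of *Scgb2b7*, *Scgb2b20* and *Scgb1b7* in *Tlr7* KO were 0.38 (SE 0.381, adjusted p = 0.473), 0.18 (SE 0.381, adjusted p = 0.739) and 0.35 (SE 0.384, adjusted p = 0.505). In *Ifnar1* KO they were 0.03, -0.10 and 0.08. After scaling by library size only they were -0.03, -0.22 and -0.05 in *Tlr7* KO. Without WT 2 they were 0.86 (adjusted p = 0.0249), 0.70 (adjusted p = 0.0499) and 0.88 (adjusted p = 0.0233) and were called, so the direction of these genes depends on the scaling and the call on that mouse. In *Ifnar1* KO, leaving out WT 2 gave 0.51 (adjusted p = 0.113), 0.41 (adjusted p = 0.209) and 0.59 (adjusted p = 0.0447), and *Scgb1b7* was called.

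The other 3 of the 6 members with the highest CPM were also not called with all mice. *Scgb2b2* was at 33194, 60901 and 39278 CPM in WT, 62931, 65999, 60791, 64712 and 76216 in *Tlr7* KO, and 52149, 54687 and 61934 in *Ifnar1* KO. Its overlapping partner *Scgb1b2* was at 37703, 53329 and 39420 CPM in WT, 63173, 65229, 58097, 67049 and 87280 in *Tlr7* KO, and 44539, 48095 and 63551 in *Ifnar1* KO. Every *Tlr7* KO mouse lay above every WT mouse for *Scgb1b2*, while for *Scgb2b2* WT 2 lay above *Tlr7* KO 3. The log2 fold changes in *Tlr7* KO were 0.58 (SE 0.270, adjusted p = 0.128) for *Scgb2b2* and 0.65 (SE 0.259, adjusted p = 0.0803) for *Scgb1b2*, and DESeq2 called both (adjusted p = 0.00924 and 0.000723). *Scgb1b3* was at 30726, 60490 and 24968 CPM in WT, 54699, 51318, 56950, 51442 and 81017 in *Tlr7* KO, and 56271, 58652 and 62474 in *Ifnar1* KO, with WT 2 within the range of each KO group. Its change on the log2 scale was 0.61 against *Tlr7* KO mice (adjusted p = 0.191), and *Ifnar1* KO mice gave 0.60 (adjusted p = 0.328). Without WT 2, all 3 genes were called in *Tlr7* KO, with 0.86 for *Scgb2b2* (adjusted p = 0.00331), 0.81 for *Scgb1b2* (adjusted p = 0.00887) and 1.08 for *Scgb1b3* (adjusted p = 0.00502), and *Scgb1b3*, like *Scgb1b7*, was also called in *Ifnar1* KO, with 1.05 (adjusted p = 0.0097).

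**Figure D3:**
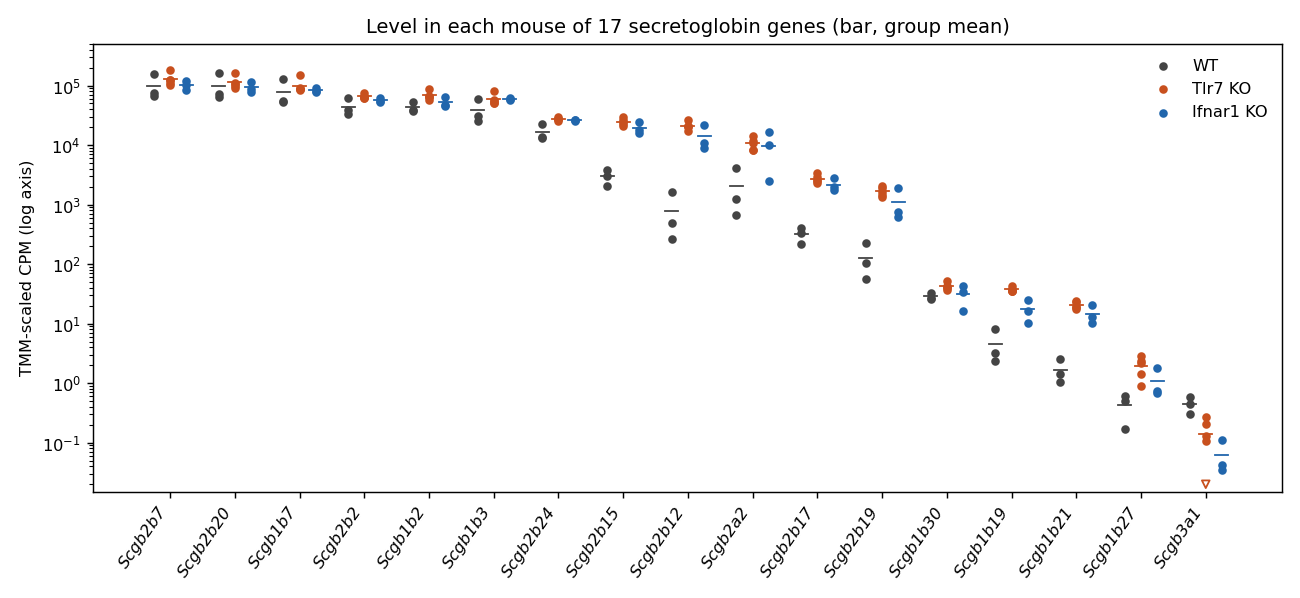
Level of 17 secretoglobin genes in each mouse as TMM-scaled CPM on a log axis (y), ordered by mean level (x), with a point per mouse in WT, *Tlr7* KO and *Ifnar1* KO and a short bar at each group mean. An open triangle marks a count of 0. The groups overlap for *Scgb2b7*, while for *Scgb2b12* all KO mice (9065 to 25986 CPM) lie above all WT mice (267 to 1601 CPM).

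Of the 27 members, 24 reached 30 counts when the WT mice were added up and were tested. *Scgb1b23-ps*, *Scgb2b22-ps* and *Scgb2b23-ps* were left out, with between 0 and 10 counts in each mouse. Between WT and *Tlr7* KO lacrimal glands, 10 of the 24 were DE at an adjusted p under 0.05, all 10 higher in *Tlr7* KO, and 14 were not called. Of all 13937 genes tested, 32.8% were DE, 15.3% as higher and 17.4% as lower in *Tlr7* KO. The median log2 fold change was 0.60 over the tested members and -0.04 over all genes. In 11 members every *Tlr7* KO mouse lay above every WT mouse, which held for 16.1% of all genes, and in 1 member (*Scgb3a1*) every WT mouse lay above, as in 14.5% of all genes. Without WT 2, 20 of 22 tested members were called, beside 48.9% of all genes, and the members' median was 1.02. With library totals as the scale, the median was -0.54 over all genes and 0.16 over the members, and of 10 members called, 9 were higher and 1, *Scgb3a1*, was lower in *Tlr7* KO.

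The beta-gamma subunit genes *Scgb2b12*, *Scgb2b15*, *Scgb2b17* and *Scgb2b19* were among those called. *Scgb2b12* (chr7:32325286-32327245, reverse strand) was at 484, 1601 and 267 CPM in WT 1, 2 and 3. It was at 21283, 17375, 25986, 20270 and 20710 CPM in *Tlr7* KO 1 to 5. WT 2 was the highest of the WT mice and still lay far under the lowest *Tlr7* KO mouse. The log2 fold change was 4.76 (27.1-fold, SE 0.605, adjusted p = 0.00121), and 5.80 without WT 2. *Scgb2b19* (chr7:33278370-33280338, reverse strand) was at 106, 224 and 57.1 CPM in WT and at 1617, 1357, 2021, 1455 and 1871 CPM in *Tlr7* KO. This gave a log2 fold change of 3.70 (SE 0.425, adjusted p = 0.000951), and of 4.34 without WT 2. Both genes were higher in 5 of 5 *Tlr7* KO mice than in any WT mouse.

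*Scgb2b15* (chr7:32827683-32829662, reverse strand) was at 3018, 3851 and 2041 CPM in WT and at 24293, 20872, 26449, 22198 and 30106 CPM in *Tlr7* KO. *Scgb2b17* (chr7:33054582-33056561, reverse strand) was at 330, 406 and 219 CPM in WT and at 2619, 2284, 2879, 2445 and 3403 CPM in *Tlr7* KO. In both, the mice of each group lay close together and the groups were far apart. The log2 fold changes were 3.06 (SE 0.277, adjusted p = 0.000477) and 3.10 (SE 0.240, adjusted p = 0.000242). Since no 31-base stretch of *Scgb2b15* is its own, the near-equal changes of these 2 genes are not 2 separate measurements. Together the 4 copies made up 1.59% ± 0.318 of Scgb2b counts in WT (SD, n = 3), 13% ± 1.82 in *Tlr7* KO (n = 5) and 11.4% ± 3.63 in *Ifnar1* KO (n = 3). In the second deposited count table, described below, these shares were 0.55% ± 0.133, 8.6% ± 1.34 and 7.53% ± 2.8, so the size of the WT share depends on the table.

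Among the alpha subunit genes, *Scgb1b19* (chr7:33287291-33288611, forward strand), the neighbor of *Scgb2b19*, was at 3.15, 8.09 and 2.35 CPM in WT. It was at 36, 35.8, 37.7, 35.8 and 42.7 CPM in *Tlr7* KO. The KO mice differed little from each other and all lay above WT 2, the highest WT mouse. The log2 fold change was 3.09 (SE 0.347, adjusted p = 0.000862), and 3.77 without WT 2. *Scgb1b21* (chr7:33527376-33528558, forward strand), annotated as a transcribed pseudogene, was at 2.58, 1.41 and 1.04 CPM in WT and at 17.4, 19, 23, 19.2 and 23.9 CPM in *Tlr7* KO. This gave a log2 fold change of 3.62 (SE 0.267, adjusted p = 0.000225). *Scgb1b27* (chr7:34021483-34022881, forward strand) was at 0.611, 0.17 and 0.492 CPM in WT and at 2.14, 0.910, 2.32, 2.85 and 1.42 CPM in *Tlr7* KO, from 4 to 18 and from 21 to 69 counts. The log2 fold change was 2.14 (SE 0.467, adjusted p = 0.00906), and after scaling by library size only it was 1.59 and not called (adjusted p = 0.05).

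Of the 3 other genes called, *Scgb2a2* changed most. It was at 1221, 4179 and 658 CPM in WT and at 11025, 8235, 8261, 11669 and 14356 CPM in *Tlr7* KO, so that no *Tlr7* KO mouse fell under WT 2. The log2 fold change was 2.42 (SE 0.558, adjusted p = 0.0112), and 3.50 without WT 2. *Scgb2b24* (chr7:33737190-33739312, reverse strand) was at 13854, 22880 and 12917 CPM in WT and at 27879, 27523, 26963, 25517 and 29810 CPM in *Tlr7* KO. This gave a log2 fold change of 0.74 (SE 0.237, adjusted p = 0.0393), and the call was lost in 7 of 8 fits that left out 1 mouse (adjusted p up to 0.146). *Scgb1b30* (chr7:34095431-34100837, forward strand) was at 26.4, 32.2 and 27.5 CPM in WT and at 41.9, 37.4, 40.3, 42.7 and 52.5 CPM in *Tlr7* KO. This gave a log2 fold change of 0.58 (SE 0.118, adjusted p = 0.00668), and 0.09 (adjusted p = 0.698) after scaling by library size only. In a single fit of all mice it was 0.585 (SE 0.239, adjusted p = 0.0794) and not called, while the call held in all 8 fits that left out 1 mouse.

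Between WT and *Ifnar1* KO lacrimal glands, which share the WT mice with the comparison above, 7 of the 24 tested members were DE. Higher in *Ifnar1* KO were 6 and lower was 1, and 17 were not called. Of all genes tested, 19.2% were DE, 6.76% as higher and 12.4% as lower in *Ifnar1* KO. The median log2 fold change was 0.56 over the tested members and -0.02 over all genes. The members' median was 0.95 without WT 2 and 0.37 without WT 3, and with library totals as the scale it was 0.37, beside -0.31 over all genes. In 9 members every *Ifnar1* KO mouse lay above every WT mouse, which held for 20.4% of all genes, and in 1 every WT mouse lay above, as in 21.2%. These calls rested on few mice. No member and no other gene was called without *Ifnar1* KO 1 or without *Ifnar1* KO 3, 1 member was called without WT 1 and 2 without WT 3, beside 0.0991% and 0.806% of all genes, while 14 of 22 were called without WT 2, beside 34.4% of all genes. Leaving out WT 3 and *Ifnar1* KO 2, the mice with the highest salivary marker sums, left 3 of 21 members called, beside 3.48% of all genes. *Scgb2b17* (log2 fold change 2.32, adjusted p = 0.0356), *Scgb1b21* (2.49, adjusted p = 0.0376) and *Scgb2b19* (2.07, adjusted p = 0.0483) were called there with smaller changes than with all mice, and *Scgb2b12* (log2 fold change 3.26, adjusted p = 0.0524), *Scgb2b15* (2.29, adjusted p = 0.0563) and *Scgb1b19* (1.25, adjusted p = 0.165) were not.

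The 6 higher genes were *Scgb2b12*, *Scgb2b15*, *Scgb2b17*, *Scgb2b19*, *Scgb1b19* and *Scgb1b21*. *Scgb2b12* was at 9065, 22117 and 11009 CPM in *Ifnar1* KO 1, 2 and 3, and its log2 fold change was 4.16 (SE 0.756, adjusted p = 0.0229). *Scgb2b19* was at 630, 1904 and 765 CPM (log2 fold change 3.08, SE 0.617, adjusted p = 0.0239). In both genes *Ifnar1* KO 2 was more than 2-fold above the other *Ifnar1* KO mice, and all 3 lay above every WT mouse. *Scgb2b15* was at 15772, 24550 and 18137 CPM (log2 fold change 2.70, SE 0.357, adjusted p = 0.0207), and *Scgb2b17* at 1763, 2747 and 1951 CPM (log2 fold change 2.74, SE 0.309, adjusted p = 0.0207). *Scgb1b19* was at 10.2, 25.2 and 16.4 CPM (log2 fold change 1.94, SE 0.500, adjusted p = 0.0376), and *Scgb1b21* at 10.2, 20.7 and 12.8 CPM (log2 fold change 3.10, SE 0.402, adjusted p = 0.0207). *Ifnar1* KO 2 was the highest *Ifnar1* KO mouse in all 6, and its salivary marker sum was also the highest of that group, which was not tested as a part of these values.

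*Scgb3a1* was the 1 member lower in *Ifnar1* KO, at a level close to the limit of detection. It entered the test through WT, where it is high, because the filter asks for WT counts alone, and a gene low in WT and high in a KO could not enter. It had 13, 14 and 11 counts in the WT mice, 1, 3 and 1 in *Ifnar1* KO, and 0, 3, 7, 5 and 2 in *Tlr7* KO. The log2 fold change in *Ifnar1* KO was -2.75 (SE 0.643, adjusted p = 0.0301), and the pooled counts gave a ratio of WT over *Ifnar1* KO of 6.78 with an exact 95% interval of 2.67 to 22.1 that covers counting error only. The corresponding change against *Tlr7* KO mice was -1.59 (SE 0.642, adjusted p = 0.0838), and after scaling by library size only it was -2.02 and called (adjusted p = 0.0402).

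The 4 other genes called in *Tlr7* KO were not called in *Ifnar1* KO, and none of the 4 passed the direct test between the KO groups. *Scgb2a2* was at 9898, 2535 and 16618 CPM, with *Ifnar1* KO 2 inside the WT range, and its log2 fold change was 2.27 (SE 0.861, adjusted p = 0.0998). With each mouse left out in turn, this change ranged from 1.60 to 3.34 (adjusted p = 0.0239 to 0.286), and it was called without WT 2, as it was after scaling by library size only (adjusted p = 0.0458) and in a single fit of all mice (adjusted p = 0.0246). *Scgb1b27* was at 0.683, 1.79 and 0.752 CPM, every mouse above the WT mice (log2 fold change 1.28, SE 0.576, adjusted p = 0.15). *Scgb2b24* was at 25392, 25984 and 26882 CPM, also above every WT mouse (log2 fold change 0.64, SE 0.328, adjusted p = 0.194). It was called by DESeq2 (adjusted p = 0.026), after scaling by library size only (adjusted p = 0.0423), in a single fit of all mice (adjusted p = 0.0402) and without WT 2 (adjusted p = 0.00946). *Scgb1b30* was at 16.5, 34.5 and 43.5 CPM, and its log2 fold change was 0.12 (SE 0.322, adjusted p = 0.812).

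**Figure D4:**
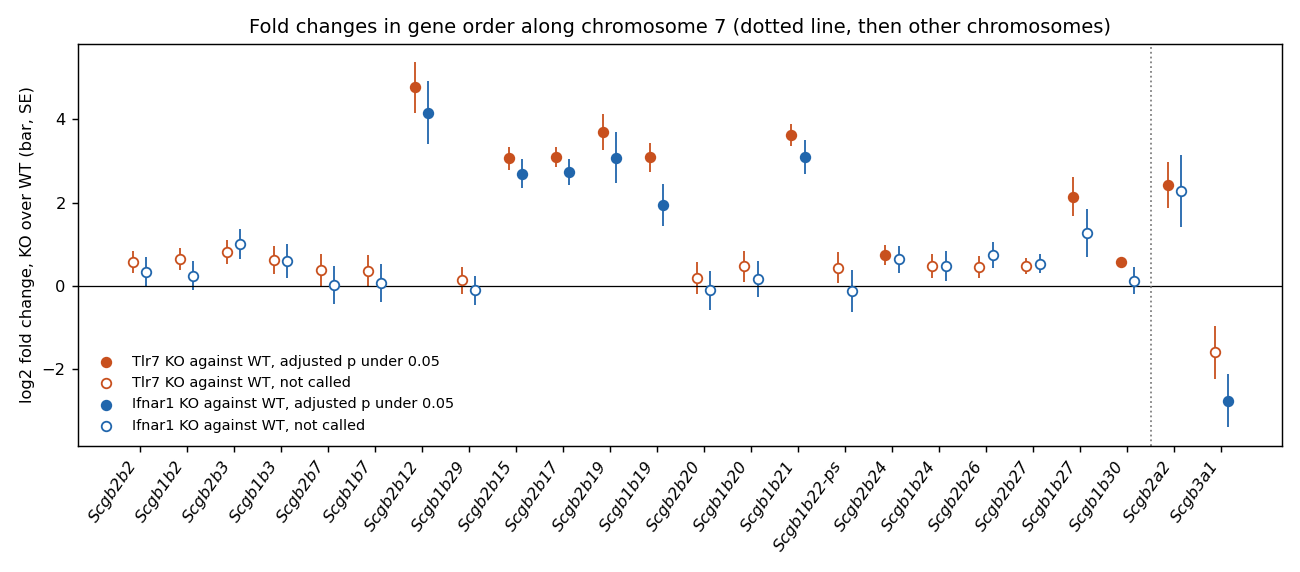
Log2 fold change of KO over WT with its SE (y axis) for the 24 tested secretoglobin genes (x axis), in their order along chromosome 7 and then, after the dotted line, *Scgb2a2* and *Scgb3a1*. Filled points passed an adjusted p of 0.05. The 6 genes higher in both comparisons, from *Scgb2b12* to *Scgb1b21*, lie between genes with changes near 0 such as *Scgb1b29* and *Scgb2b20*.

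The difference between the 2 KO groups was tested directly. Of the 24 tested members, 1 was DE, beside 1.79% of all genes (0.926% as higher and 0.868% as lower in *Tlr7* KO). *Scgb1b19* was higher in *Tlr7* KO than in *Ifnar1* KO by a log2 fold change of 1.13 (SE 0.227, adjusted p = 0.0390), with every *Tlr7* KO mouse (35.8 to 42.7 CPM) above every *Ifnar1* KO mouse (10.2 to 25.2 CPM). It was the 1 member with groups apart in that direction, as were 5.44% of all genes, and no member was apart the other way, as were 5.42%. This call was lost in 7 of 8 fits that left out 1 mouse (adjusted p up to 0.139) and in a single fit of all 11 mice (adjusted p = 0.192). For *Scgb2b12* the difference was 0.59 (SE 0.265, adjusted p = 0.304), for *Scgb2b19* 0.60 (SE 0.321, adjusted p = 0.383), for *Scgb2b15* 0.35 (SE 0.171, adjusted p = 0.338) and for *Scgb1b21* 0.50 (SE 0.204, adjusted p = 0.265). For *Scgb2a2* it was 0.15 (SE 0.451, adjusted p = 0.897). Without *Ifnar1* KO 2 the differences were 1.08 for *Scgb2b12* (adjusted p = 0.0105), 1.26 for *Scgb2b19* (adjusted p = 0.0047) and 0.85 for *Scgb1b21* (adjusted p = 0.0119), and all 3 were called. A p above the threshold does not show that the levels in the 2 KO groups were alike.

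Location in the cluster separated the genes called from those not called only in part. In order along chromosome 7, the 6 genes higher in both KO groups lay between *Scgb2b12* and *Scgb1b21*, at chr7:32325286-33528558. The tested genes *Scgb1b29*, *Scgb2b20* and *Scgb1b20* lay in the same stretch, and their log2 fold changes in *Tlr7* KO were 0.13 (adjusted p = 0.779), 0.18 (adjusted p = 0.739) and 0.47 (adjusted p = 0.357). An alpha and a beta-gamma gene of the same number mostly lay next to each other on opposite strands, with gaps of 4486 bases for number 24 and 13519 bases for number 3. *Scgb1b19* and *Scgb2b19*, 6952 bases apart, were both called. *Scgb1b20* and *Scgb2b20*, 6911 bases apart, and *Scgb1b7* and *Scgb2b7*, 6907 bases apart, were not. For number 24 the beta-gamma gene was called and for number 27 the alpha gene. Their partners were not: *Scgb1b24* stood at 0.47 (adjusted p = 0.243), and *Scgb2b27* stood at 0.48 (adjusted p = 0.0773), on the log2 scale in *Tlr7* KO.

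The remaining members passed the test in no comparison. *Scgb2b3* was at 2399 to 5585 CPM in WT, 5299 to 8377 in *Tlr7* KO and 6771 to 7532 in *Ifnar1* KO, and its log2 fold change was 0.81 for *Tlr7* KO (adjusted p = 0.0596) against 1.0 for *Ifnar1* KO (adjusted p = 0.0868). Every *Ifnar1* KO mouse lay above every WT mouse for *Scgb2b3*, also in the second count table, while *Tlr7* KO and WT overlapped. *Scgb1b24* was at 1204 to 2873 CPM in WT, 2077 to 3444 in *Tlr7* KO and 2280 to 2674 in *Ifnar1* KO. *Scgb2b26* was at 283 to 656, 505 to 839 and 645 to 844 CPM, *Scgb1b29* at 835 to 2096, 1180 to 2214 and 1129 to 1316 CPM, and *Scgb1b20* at 20399 to 50745, 36222 to 65343 and 32635 to 36961 CPM in the same groups. *Scgb2b27* stayed between 12.4 and 28.9 CPM in all mice and was highest in *Ifnar1* KO 2. The levels of *Scgb2b26* and *Scgb2b27* rest on the main table. In the second table, described below, *Scgb2b26* had 0 to 3 counts in each mouse and *Scgb2b27* had 8 to 30. *Scgb1b22-ps* had 7 to 18 counts in each mouse, and the 3 untested pseudogenes had 0 to 10.

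The changes were then compared with a second deposited count table, made by aligning reads to the genome, in which all 27 members were found by gene identifier (*Scgb1b20* is named Scgb1b11 there). Of the 21 members with over 1000 counts in the main table, 12 took a share of counts within 2-fold of each other in the 2 tables. The share was more than 2-fold higher in the main table, or 0 in the second, for 7, and more than 2-fold higher in the second table for 2. *Scgb1b7* had 8.67% of all counts in the main table and 1.88% in the second, while its identical copy *Scgb1b29* had 0.129% and 1.24%. *Scgb2b15* had 1.66% and 0.333%. *Scgb1b19* had 6174 counts over all mice in the main table and 26136 in the second. For *Scgb2b26* these sums were 166833 and 3, and for *Scgb2b27* 5885 and 225.

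**Figure D5:**
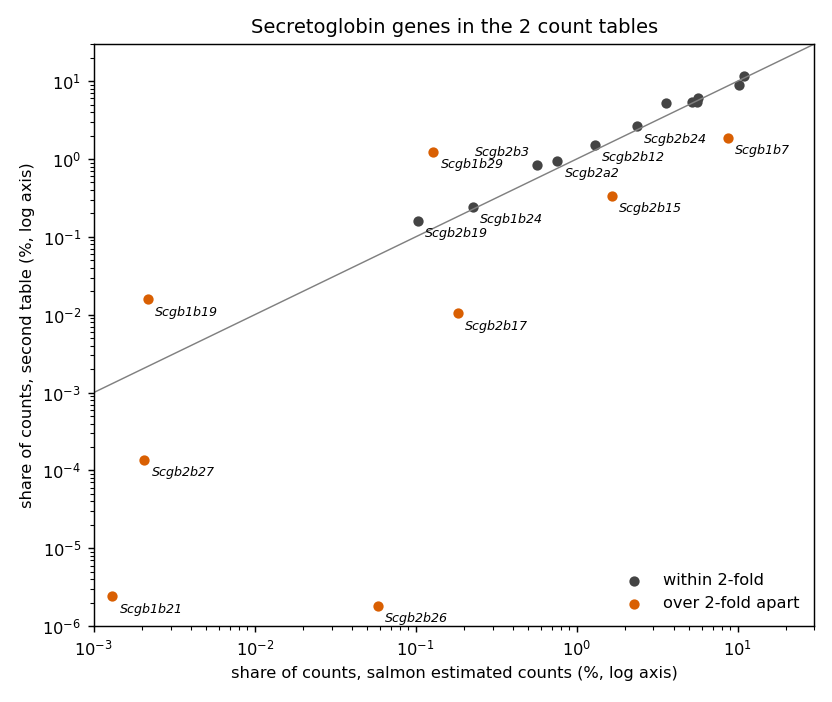
Share of all counts in percent over the 11 mice in the main table (x, log axis) and in the second table (y, log axis) for the secretoglobin genes with over 1000 counts, with the line of equality in grey. Points in orange differ by over 2-fold. *Scgb1b30*, with no counts in the second table, is not drawn, and the 6 unlabelled points at the upper right are *Scgb1b2*, *Scgb1b3*, *Scgb1b20*, *Scgb2b2*, *Scgb2b7* and *Scgb2b20*.

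Refitting the second table gave 7 of 20 tested members higher in *Tlr7* KO (30.7% of its genes were DE), and all 7 were among the 10 of the main table. *Scgb2b12* had 10117, 28237 and 10330 counts in WT and 251029 to 438603 in *Tlr7* KO there, and its log2 fold change was 4.48. The sizes for *Scgb2b19* (4.86) and *Scgb2b17* (7.21, and 6.06 in *Ifnar1* KO) were larger there than in the main table, so these sizes depend on the table. *Scgb2a2* had 17759 to 73301 counts in WT and 138518 to 214581 in *Tlr7* KO. *Scgb1b19* had 139 to 914 counts in WT, 3121 to 4550 in *Tlr7* KO and 1261 to 2605 in *Ifnar1* KO. Of the other 3, *Scgb1b21* had 0 or 1 count in each mouse and *Scgb1b30* had 0, so their changes were seen in the main table alone. *Scgb1b27* had 3 to 41 counts there and was too low in WT to be tested. *Scgb2b17* had 9 to 34 counts in WT and 586 to 6830 in *Tlr7* KO. Against *Ifnar1* KO, 4 of 20 members were called in the second table, beside 19.2% of its genes, all among the 7 of the main table, and *Scgb1b19* (adjusted p = 0.101) and *Scgb3a1* (adjusted p = 0.0613) were not.

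Counts were also summed over close copies, which does not depend on how reads shared within a group were divided. The sum of *Scgb2b12* and *Scgb2b19* was 17370, 42869 and 11872 counts in WT, 430700 to 737866 in *Tlr7* KO and 281715 to 642650 in *Ifnar1* KO. It rose by a log2 fold change of 4.65 (SE 0.581, adjusted p = 0.00116) in *Tlr7* KO and 4.04 (SE 0.735, adjusted p = 0.0229) in *Ifnar1* KO, and in the second table by 4.51 (adjusted p = 0.000659) and 4.07 (adjusted p = 0.0166). The sum of *Scgb2b15* and *Scgb2b17* rose by 3.07 (SE 0.278, adjusted p = 0.000493) and 2.70 (SE 0.358, adjusted p = 0.0209), and in the second table by 3.43 (adjusted p = 0.000482) and 3.02 (adjusted p = 0.0159). The sum of *Scgb2b7* and *Scgb2b20* was 4334559, 7499762 and 4834028 counts in WT and 4655370 to 6630056 in *Tlr7* KO, and its log2 fold change was 0.28 (SE 0.411, adjusted p = 0.624) in *Tlr7* KO and -0.03 (SE 0.490, adjusted p = 0.969) in *Ifnar1* KO. The sum of *Scgb1b7*, *Scgb1b20* and *Scgb1b29* had 0.39 (SE 0.400, adjusted p = 0.484) and 0.10 (SE 0.462, adjusted p = 0.9).

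Other secreted proteins of exocrine glands were read beside the secretoglobins from a list of 34 genes, of which 29 were tested. In *Tlr7* KO, 13 rose, 4 fell and 12 were not called (median log2 fold change 0.83), beside the 32.8% of all genes that were DE. Of those that fell, *Dcpp1* and *Dcpp2* were called although the groups overlapped, at 11.9 ± 20.5 and 7.58 ± 13.1 CPM in WT (SD, n = 3), with nearly all of it in 1 WT mouse. In *Ifnar1* KO, 6 rose, 2 fell and 21 were not called (median 0.38), beside 19.2% of all genes. Those that rose in both included *Lpo*, the lactoperoxidase gene, which changed by 1.5 on the log2 scale in the first KO (adjusted p = 0.0031) and by 1.55 in the second (adjusted p = 0.0265), and *Esp1*, which encodes a peptide of male tears, with 3.65 (adjusted p = 0.000775) and 3.90 (adjusted p = 0.0259). *Pip*, another secreted gland protein, was not called in either, with -0.02 and -0.17. *Fkbp5*, a gene induced by androgens and glucocorticoids, was at 105 ± 19.3 CPM in WT (SD, n = 3) and 234 ± 30 in *Tlr7* KO (n = 5), with a log2 fold change of 1.16 (adjusted p = 0.00138), and in *Ifnar1* KO it had 0.67 (adjusted p = 0.0722).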

How the data were processed

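RNA-seq was done on lacrimal glands of 11 NOD mice. In the main deposited table, the authors gave estimated counts per gene from salmon and tximport. The file is named as normalized, but its columns sum to unequal totals of unscaled values, and they were rounded to whole numbers. The second deposited table held whole read counts after HISAT2 2.1.0 alignment to mm10, and its counting program and strand setting are not given in the sources used here. In that table, 1 per-sample column matched no sample label and was not used. Libraries of a group were taken as separate mice, which the labels do not state. The paper states it for WT and *Tlr7* KO, where 1 gland of each mouse was sequenced, but not for *Ifnar1* KO. The p-values therefore measure the spread between these libraries.

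Members and gene lists were chosen with earlier results of these data known. Genes with a summed WT count of at least 30 were tested on the whole table with edgeR 4.0.16 (R 4.3.3, limma 3.58.1; quasi-likelihood test, TMM scaling, Benjamini-Hochberg adjustment over 13937 genes, called at an adjusted p under 0.05), each comparison with its own mice. The SE is the log2 fold change over the root of F. The script was tested on simulated data. Per-mouse values are given for members called in any comparison and the 6 with the highest mean CPM. Totals were 20512315 to 28814250 in the main and 12233586 to 16621073 in the second table, and 3 counts correspond to 0.082 to 0.157 CPM. Coding sequences, 31-base stretches and positions came from GENCODE M21 (GRCm38), compared with edlib 1.3.9.post1, and promoters from RefSeq (GRCm38.p6).

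Alternatives were other scalings, DESeq2 1.42.0, other count filters, a single fit of all mice, a stricter threshold, the replicate number as a block, the second table, and each mouse left out. Summing close copies and leaving out the mice high in salivary genes were added after seeing the data. Results for some marker and list genes are not reported here.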

Additional observations from a re-analysis of the deposited data

Results flagged for a closer look

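The TMM-scaled level of 10 members in *Tlr7* KO 5 lay apart from that in the other *Tlr7* KO mice. This was judged by the gap to the nearest mouse over the whole range of the group, which can be wide where the mice differ little. The critical value for 5 mice is 0.71, which chance passes in a small share of groups, and 27 members were examined. *Scgb1b29* had the widest gap, 0.937, with 2214 CPM in *Tlr7* KO 5 and 1180 to 1245 in the other mice. Its relatives *Scgb1b20* (gap 0.911) and *Scgb1b7* (gap 0.894) followed, the latter with 148800 CPM beside 84790 to 91600. Because these genes share reads, they are not separate observations. *Scgb1b3* had a gap of 0.81 (81020 CPM beside 51320 to 56950), *Scgb1b24* of 0.777, *Scgb2b26* of 0.773 and *Scgb2b7* of 0.749 (185300 CPM beside 101900 to 122800). *Scgb2b20* had a gap of 0.739, *Scgb2b3* of 0.721 and *Scgb1b19* of 0.721 (42.7 CPM beside 35.8 to 37.7). *Tlr7* KO 5 also had the lowest TMM factor, 0.692, and its part in these values was not tested. In unscaled counts, *Scgb1b19* was lowest in *Tlr7* KO 5, at 814 beside 825 to 993 in the other *Tlr7* KO mice. *Scgb2b3* lay within the range of the group there, with 159781 counts in *Tlr7* KO 5 and 162219 in *Tlr7* KO 3. The other members named here also had their highest count in *Tlr7* KO 5.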

How the results depend on the processing

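By edgeR, 10 members were called between WT and *Tlr7* KO, and the count ranged from 8 to 20 with 1 mouse left out (20 without WT 2). With the replicate number as a block, 0 were called (10 at an unadjusted p under 0.05, and 14 of all genes called). Same-numbered mice of WT and either KO did not deviate together (correlations from -0.47 to -0.036). Between the KO groups the correlations were 0.066, 0.332 and 0.187 and each mouse was closest to its own number, a hint from the data only, so the numbers were not read as pairs. Between WT and *Ifnar1* KO, the 7 called became 0 under the block (8 at an unadjusted p under 0.05), 0 at a threshold of 0.01, 4 in the second table, 3 without the mice high in salivary genes, and 0 to 14 with 1 mouse left out (0 without *Ifnar1* KO 1 or 3, with 9 and 7 at an unadjusted p under 0.05). DESeq2 called 13 and 9 members in these comparisons, beside 33% and 24.1% of all genes. Between the KO groups, the 1 called became 0 in a single fit of all mice and at a threshold of 0.01, and 0 to 4 with 1 mouse left out (4 without *Ifnar1* KO 2), while 4 had an unadjusted p under 0.05 and DESeq2 called 1. The block kept 1 there. Fits that leave out a WT mouse also test fewer genes. The secretoglobin share was lower in the second table, at 53.4% in *Tlr7* KO and 52% in *Ifnar1* KO. With mice left out it ranged from 49.6% to 56.1% in WT. The cause of these shifts was not tested. Over the named genes, 76 values fell short of the threshold under an alternative and 22 newly passed it. No called value changed sign, but values near 0 that were not called did, after scaling by library size only, in the second table, under the block and with mice left out, such as *Scgb1b30* in *Ifnar1* KO (0.12, and -0.19 after scaling by library size only). Counts of *Scgb1b27* and *Scgb3a1* were too low to show small differences.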
